A study of Mus musculus with 4 samples.

Results

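The immediate early response genes examined here were Fos, Fosb, Jun, Junb, Egr1, Atf3, Ier3, Dusp1, Zfp36 and Nr4a1, chosen by name and followed across all 4 arrays of a study of TNBS colitis. Of these 10 genes, 9 were measured, each by 1 probe set with a single gene symbol, among 19055 protein-coding genes on the array. The only probe set of Junb also carried the symbol of its neighbour Prdx2, so its signal could not be given to Junb and no value is reported for it. Colonic epithelial cells (CECs) were enriched for the surface protein EPCAM, and RNA was hybridized to Clariom D mouse arrays, whole-transcriptome arrays on which a gene is read by a group of short probes called a probe set. The deposited values are log2 signals, so that a difference of 1 is a 2-fold difference. All animals were BALB/cJ females of 8 to 10 weeks, sampled on day 5.

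The design crossed colitis with treatment. Vehicle mice received the ethanol enema and the injected DMSO and corn oil without either agent. I3C mice received the ethanol enema and daily intraperitoneal I3C (indole-3-carbinol, a plant-derived ligand of the aryl hydrocarbon receptor) at 40 mg/kg. TNBS + Veh mice received 1 mg of TNBS (a hapten that provokes colitis when placed in the colon with ethanol) and the injected vehicle, and TNBS + I3C mice received both agents. The cells of each group went onto its array as a pool, with 1 array per group, so no difference below carries a standard error or a p-value and none was tested. The sample labels and the study's methods differ in the volume and ethanol content of the enema, and the labels' extraction note names whole colon where the cell type field names enriched epithelial cells.

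Immediate early genes are transcribed within minutes of a signal at the cell surface, without waiting for new protein, because the factors that read their promoters (serum response factor with its partners, and CREB) are already in place and are switched on by MAP kinases. Many of their products are transcription factors. FOS and FOSB pair with JUN or JUNB to form AP-1, EGR1 is a zinc finger activator, ATF3 is a stress-induced member of the ATF family, and NR4A1 (Nur77) is an orphan nuclear receptor. The others end or limit the response: DUSP1 removes phosphate from MAP kinases, ZFP36 (tristetraprolin) binds AU-rich elements of cytokine mRNAs and promotes their decay, and IER3 acts in survival and death signalling downstream of NF-kB. In the gut these genes respond to injury, cytokines and microbial products, and they are also known to be induced when tissue is taken apart into single cells.

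Promoter sequence from RefSeq (GRCm38.p6) is shown for 4 members whose signals behaved differently on these arrays. Ier3 and Nr4a1 had the largest differences between TNBS + Veh and Vehicle, Zfp36 was among the more evenly raised members, and Fos differed little. Each run is the 250 bases before the annotated start, 5' to 3' on the gene's strand. Matches to the CArG box, TGACGTCA, TGACG and NF-kB site that end within the run are in capitals. Matches to the dioxin response core, GCGTG or CACGC, were left in lower case. Ier3 lies at chr17:35821463-35821712 on the plus strand, Nr4a1 at chr15:101266596-101266845 on the plus strand, Zfp36 at chr7:28379229-28379478 on the minus strand and Fos at chr12:85473640-85473889 on the plus strand.
Ier3: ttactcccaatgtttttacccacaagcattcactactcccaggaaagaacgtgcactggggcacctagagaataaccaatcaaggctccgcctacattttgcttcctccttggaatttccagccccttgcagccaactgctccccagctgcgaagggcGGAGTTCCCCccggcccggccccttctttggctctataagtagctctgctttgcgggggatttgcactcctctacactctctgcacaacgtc
Nr4a1: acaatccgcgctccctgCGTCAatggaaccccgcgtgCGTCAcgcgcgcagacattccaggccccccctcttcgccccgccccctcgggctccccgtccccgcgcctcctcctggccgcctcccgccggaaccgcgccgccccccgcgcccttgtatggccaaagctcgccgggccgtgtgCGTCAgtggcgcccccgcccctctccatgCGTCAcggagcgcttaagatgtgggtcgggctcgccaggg
Zfp36: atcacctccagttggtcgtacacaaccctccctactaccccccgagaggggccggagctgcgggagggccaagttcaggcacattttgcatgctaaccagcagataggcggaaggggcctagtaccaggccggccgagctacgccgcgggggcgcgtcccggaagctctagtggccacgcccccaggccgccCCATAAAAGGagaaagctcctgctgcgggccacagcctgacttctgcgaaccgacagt
Fos: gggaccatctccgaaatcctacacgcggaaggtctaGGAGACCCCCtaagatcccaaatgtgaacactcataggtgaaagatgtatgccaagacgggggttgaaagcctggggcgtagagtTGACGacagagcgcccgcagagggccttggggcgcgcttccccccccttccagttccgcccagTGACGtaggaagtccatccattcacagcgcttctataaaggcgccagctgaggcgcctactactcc
The capitals mark an NF-kB site in Ier3, 4 copies of TGACG (read as CGTCA on this strand) in Nr4a1, a CArG box in Zfp36, and an NF-kB site followed by 2 copies of TGACG in Fos. Nr4a1 also has an NF-kB site that begins 3 bases before the start and runs past it, so it is not in capitals.

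The search covered both strands of 300 bases, from 250 before to 50 after the start, for 9 of the 10 members. Egr1 was not searched. Sites farther from the start lie outside the window, so a motif not found here may still be present beyond it. The CArG box, the element bound by serum response factor, was found in Zfp36 alone, 58 bases before the start, and in 1.63% of all 32851 promoter windows. The cyclic AMP response element TGACGTCA was found in Dusp1 alone, 143 bases before the start, and in 1.79% of all windows. Its shorter core TGACG, which TGACGTCA also contains, was present in 6 of 9 members (Atf3, Fosb, Junb, Fos, Nr4a1 and Dusp1) against 20.8% of all windows. An NF-kB site was present in 4 members (Fosb, Fos, Nr4a1 and Ier3) against 8.46%. The dioxin response core GCGTG, the letters read by the aryl hydrocarbon receptor, was present in 6 members (Atf3, Fosb, Zfp36, Junb, Fos and Nr4a1) against 32.4%, and the AP-1 site TGANTCA in none against 7.81%. Most of these motifs contain CG or runs of G and C, and the members' windows held 54.0 to 72.3% G and C where the median window held 52.7%. Although the printed promoters were picked by their array values, these matches are descriptions of sequence. Any relation between a motif and the array differences was not tested.

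All 9 measured members gave signals above background on every array, those from untreated animals included, and for all but Ier3 the signals were strong. Background was gauged from 1530 olfactory and vomeronasal receptor probe sets, whose 95th percentile (called the receptor level) was at most 5.44 on any array, and the members lay at least 1.31 above that level on their lowest array. Ier3 came nearest to it, with 6.75 in Vehicle, and the other 8 members never fell below 13.37. The array medians over all probe sets were 4.99 and 5.00 for Vehicle and I3C, and 4.87 and 4.88 for the 2 TNBS arrays. Epcam, the selection marker, was 17.06, 16.91, 17.06 and 17.13, with the arrays in the order Vehicle, I3C, TNBS + Veh, TNBS + I3C that is kept wherever 4 values follow each other below. Probe sets at the top of the scale lose their differences: of 32 coding genes with a mean of 18 to 20, 59.4% had the same value on all 4 arrays, against 9.52% of 42 genes with a mean of 16 to 18, where Fos, Jun and Atf3 lie, and none of 246 genes with a mean of 13 to 16.

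**Figure D1:**
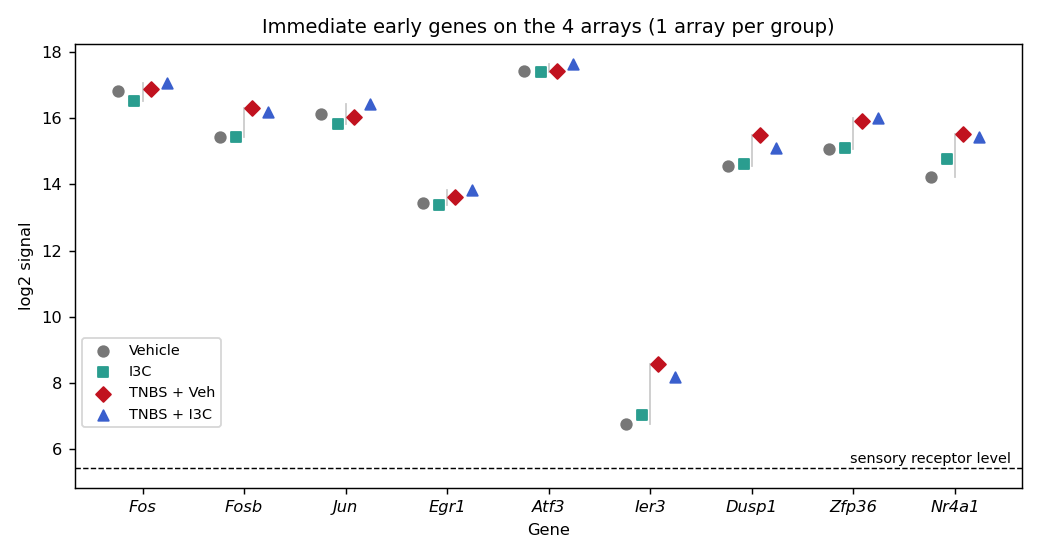
Log2 signal (vertical axis) of the 9 measured immediate early genes (horizontal axis) on the 4 arrays, 1 point per array, with the group given by colour and shape and the dashed line at the highest receptor level of 5.44. Ier3, Nr4a1, Fosb and Zfp36 show both TNBS arrays well above the other 2, whereas Atf3 spans only 0.25 over the 4 arrays.

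In untreated colitis 5 members had a clearly higher signal than in Vehicle and 4 stayed near it. In TNBS + Veh, Ier3 was 3.51-fold and Nr4a1 2.45-fold higher than in Vehicle, and Dusp1, Fosb and Zfp36 were 1.91-, 1.83- and 1.8-fold higher. Fos, Jun, Egr1 and Atf3 differed from Vehicle by no more than 0.17 on the log2 scale. The median difference over the 9 members was 0.85, where the median over all coding genes was -0.02. At least 2-fold higher were 2 of 9 members, against 1.75% of coding genes (334), and at least 1.5-fold higher were 5 of 9, against 6.04% (1150). No member was 2-fold lower. The 2-fold share depends on signal level. Of coding genes with a mean of 13 to 16, where Nr4a1 lies, 13.4% differed at least 2-fold in either direction. Of those with a mean of 6 to 9, where Ier3 lies, 2.85% did.

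Ier3, the survival gene, measured 6.75 in Vehicle and 7.02 in I3C, with TNBS + Veh at 8.56 and TNBS + I3C at 8.18. Both TNBS arrays exceeded both arrays without TNBS by at least 1.16, the widest separation of any member. Nr4a1 measured 14.24 in Vehicle and 14.77 in I3C, with TNBS + Veh at 15.53 and TNBS + I3C at 15.43. Of the raised members it had the largest difference between I3C and Vehicle, 0.53. The remaining separation between the lower TNBS array and the I3C array was 0.66.

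Among the AP-1 genes, Fosb measured 15.44 in both Vehicle and I3C, with TNBS + Veh at 16.31 and TNBS + I3C at 16.18. The 2 arrays without TNBS were thus identical to 2 decimals, and the TNBS arrays lay at least 0.74 above them. Its partner Jun behaved otherwise, with 16.14 in Vehicle and 15.84 in I3C, and with TNBS + Veh at 16.05 and TNBS + I3C at 16.43. The Jun value of TNBS + Veh lay below that of Vehicle, so the groups with and without TNBS overlapped. Fos, the usual partner of JUN, measured 16.83 in Vehicle and 16.54 in I3C, with TNBS + Veh at 16.88 and TNBS + I3C at 17.07. Its TNBS arrays were above the others by only 0.05.

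The feedback genes resembled Fosb more than Fos and Jun. Zfp36, the mRNA decay factor, measured 15.08 in Vehicle and 15.11 in I3C, with TNBS + Veh at 15.93 and TNBS + I3C at 16. Within each pair of arrays its values differed by no more than 0.07, and the pairs were separated by 0.82. Dusp1, the MAP kinase phosphatase, measured 14.57 in Vehicle and 14.62 in I3C, with TNBS + Veh at 15.50 and TNBS + I3C at 15.11. The treated colitis array lay between the others, 0.49 above the I3C array and 0.39 below TNBS + Veh.

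Egr1 and Atf3 were flat by comparison. Egr1 measured 13.44 in Vehicle and 13.37 in I3C, with TNBS + Veh at 13.61 and TNBS + I3C at 13.83. Atf3 measured 17.42 in Vehicle and 17.39 in I3C, with TNBS + Veh at 17.42 and TNBS + I3C at 17.64. For Atf3 the Vehicle and TNBS + Veh arrays were equal. Its level lies where a minority of probe sets no longer vary, although other genes with a mean of 16 to 18 differed between TNBS + Veh and Vehicle with an SD of 0.688 across genes.

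Counted over the members, both TNBS arrays were above both other arrays for 7 of 9 (all but Jun and Atf3), against 24.2% of coding genes, and by at least 0.5 for 4 of 9 (Fosb, Ier3, Zfp36 and Nr4a1), against 1.68%. These counts must be read with the signal level, since bright genes as a whole were higher with TNBS. Among the 320 coding genes with a mean of at least 13, a limit set after the values were seen, the median difference between TNBS + Veh and Vehicle was 0.21. In that class 55.6% of genes had both TNBS arrays above both others, where 6 of 8 members did. By at least 0.5, the share was 16.6%, against 3 of 8 members. At least 1.5-fold higher in TNBS + Veh than in Vehicle were 22.8% of these genes and 4 of 8 members. Quantile normalization, which gives the arrays one common distribution, took the median of the bright genes to 0.00 in this comparison. Under it Ier3 was 1.73 and Nr4a1 1.04 higher in TNBS + Veh than in Vehicle, Dusp1 0.68, Fosb 0.64 and Zfp36 0.61, whereas Fos and Egr1 were -0.06 and -0.08 and Jun was -0.30.

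With I3C on board, TNBS again went with higher signals, and all 9 members were higher by some amount, against 48.4% of coding genes and 80.9% of bright genes. In TNBS + I3C against I3C the differences ran from 0.25 for Atf3 to 1.16 for Ier3, with a median of 0.59 where all coding genes had 0. Only Ier3 was at least 2-fold higher, at 2.23-fold, against 0.924% of coding genes. The members that had not differed without I3C did so here to a moderate degree: Jun was 0.59, Fos 0.53 and Egr1 0.46 higher. The bright genes had a median of 0.43 in this comparison, or 0.26 after quantile normalization, and after that normalization Jun was 0.50, Fos 0.46 and Egr1 0.25 higher.

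**Figure D2:**
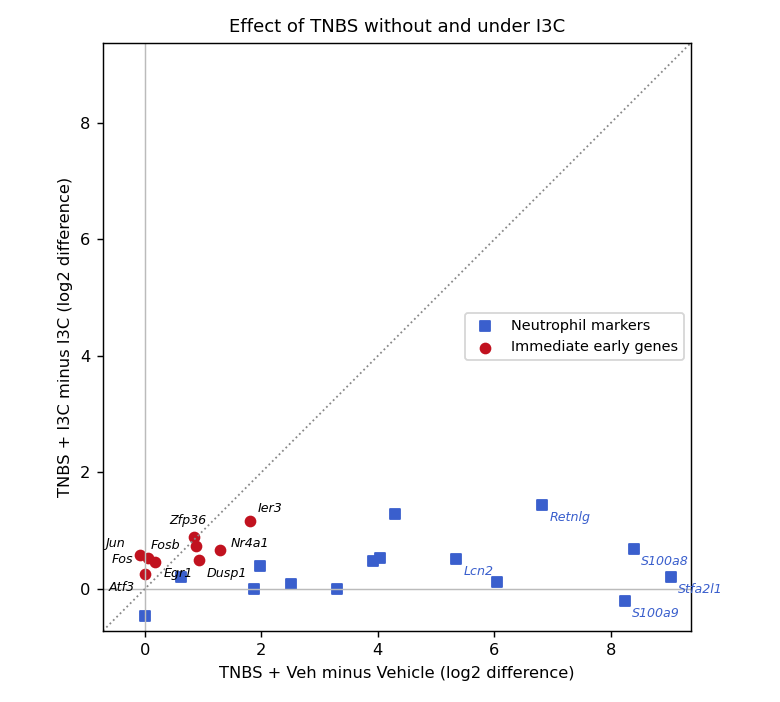
Log2 difference of TNBS + Veh minus Vehicle (horizontal axis) against TNBS + I3C minus I3C (vertical axis) for the 9 immediate early genes (red circles) and 15 neutrophil markers (blue squares), 1 point per gene, with the dotted line marking equal differences. The neutrophil markers spread to 9.03 on the horizontal axis and run from -0.47 to 1.44 on the vertical axis, where Ier3, the highest member, is at 1.16. Ier3, Nr4a1 and Dusp1 lie below the dotted line by 0.65, 0.63 and 0.44. Jun and Fos lie above it by 0.68 and 0.48, and the other 4 immediate early genes lie within 0.29 of it.

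Between the 2 colitis arrays no member differed by 2-fold, against 1.55% of coding genes that differed at least 2-fold in either direction (114 higher and 181 lower). Against TNBS + Veh, Ier3 (-0.38) and Dusp1 (-0.39) were lower under I3C, and Nr4a1 (-0.10) and Fosb (-0.13) slightly so. Jun was higher by 0.38, Egr1 and Atf3 each by 0.22, Fos by 0.19 and Zfp36 by 0.07. The median was 0.07. Nor did any member differ by 2-fold between I3C and Vehicle, against 0.336% of coding genes in either direction. Nr4a1 was 0.53 and Ier3 0.27 higher than in Vehicle, Jun (-0.30) and Fos (-0.29) were lower, and the other 5 members lay within 0.07.

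Treated colitis stood above the untreated control for all 9 measured members, as it did by some amount for 48.4% of coding genes and 73.8% of bright genes. In TNBS + I3C, Ier3 was 2.69-fold and Nr4a1 2.28-fold higher than in Vehicle, Zfp36 1.89-fold, Fosb 1.67-fold and Dusp1 1.45-fold. The 2 members at or past 2-fold compare with 0.635% of coding genes, and the member median was 0.54. At least 2-fold in either direction were 6.10% of coding genes with a mean of 13 to 16 and 0.518% of those with a mean of 6 to 9. Under quantile normalization Ier3 remained past 2-fold and Nr4a1 fell just short, at 0.95 on the log2 scale. Among bright genes the median of this comparison was 0.32, or 0.14 after quantile normalization. This comparison shares its Vehicle array with that of untreated colitis, so the 2 sets of differences are not independent.

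Fos, Jun, Egr1 and Atf3 shared another order, with the lowest value in I3C and the highest in TNBS + I3C, although the steps were small (ranges of 0.53, 0.59, 0.46 and 0.25). This order was noticed in the values and held for 4 of 9 members, against 8.3% of coding genes. Among bright genes it held for 28.4%, where 4 of 8 members had it. It was also the order of 7 of 10 pan-epithelial markers: Epcam, Krt18, Krt20, Cdh1, Vil1, Cldn7 and Cldn3. Krt20 measured 17.84, 17.32, 18.01 and 18.17, and Vil1 14.27, 14.04, 14.46 and 14.81. The mean over the 10 epithelial markers was 15.90, 15.73, 16.03 and 16.21, the same order as Fos. The part of epithelial content, or of overall signal, in the order of these members was not tested. In pooled cells, fewer cells of a type and less RNA per cell cannot be told apart.

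**Figure D3:**
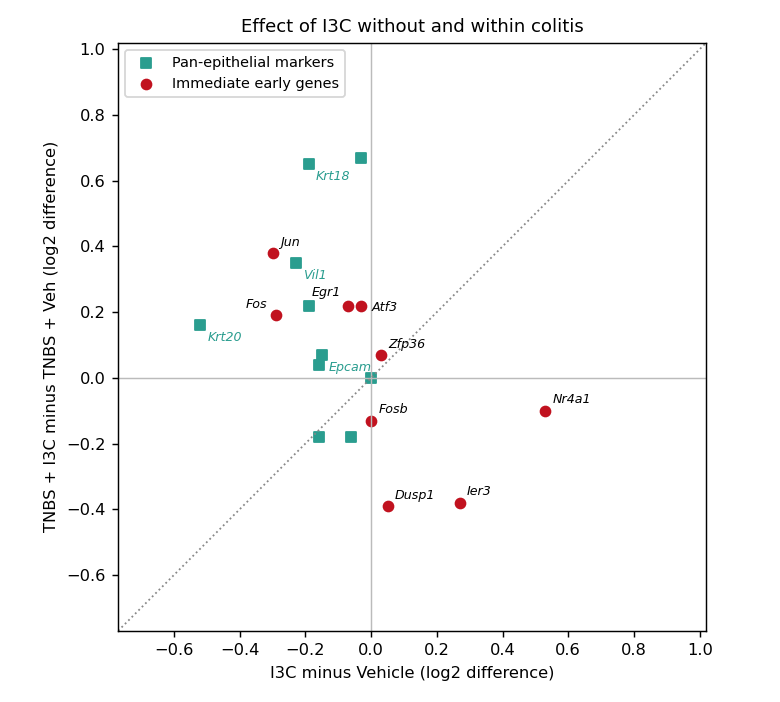
Log2 difference of I3C minus Vehicle (horizontal axis) against TNBS + I3C minus TNBS + Veh (vertical axis) for the 9 immediate early genes (red circles) and 10 pan-epithelial markers (teal squares), 1 point per gene, with the dotted line marking equal differences. Jun, Fos, Egr1 and Atf3 share the upper left of the plot with most epithelial markers, whereas Nr4a1, Ier3 and Dusp1 lie at the lower right.

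Neutrophil markers differed far more than the members did. The median differences between TNBS + Veh and Vehicle were 0.14 for macrophage and monocyte, -0.20 for T cell and -0.10 for B and plasma cell markers. These 3 medians rest partly or wholly on genes at background. Only 5 of 12 macrophage and 6 of 9 T cell markers were above the receptor level on any array, and 3 of those 5 were past 2-fold higher. Of 15 neutrophil markers, 13 were past 2-fold higher in TNBS + Veh, with a median of 4.04 above Vehicle, and under I3C 12 of them lay past 2-fold below TNBS + Veh. The calprotectin gene S100a8 measured 4.34, 3.54, 12.74 and 4.23. The mean over the list was 5.73, 5.66, 10.16 and 6.01, and 8, 7, 15 and 9 of its genes were above the receptor level. In TNBS + I3C the neutrophil median was 0.28 above Vehicle, or 0 with dim values raised to the receptor level. Ier3 was 1.43, Nr4a1 1.19, Zfp36 0.92, Fosb 0.74 and Dusp1 0.54 above Vehicle there. Single markers overlapped the members in this comparison, as Ly6g was 1.11 and Il1r2 0.70 above Vehicle, although 5 of the 15 markers were below it. Some marker signal remained there, as Retnlg was 6.90 against 6.15 in Vehicle and the macrophage and neutrophil gene Lyz2 was 8.53 against 6.74. Of 12 macrophage and monocyte markers, 3 exceeded 2-fold in TNBS + Veh against Vehicle (Lyz2, Ly6c2 and Cd68), and the list mean was 5.18, 5.27, 5.72 and 5.42. T cell markers had means of 5.57, 5.72, 5.34 and 5.78 over 9 genes, fibroblast markers 5.57, 5.63, 5.91 and 5.65 over 7 genes, and endothelial markers 4.59, 4.54, 4.31 and 4.42 over 6 genes. None of 5 B and plasma cell markers was above the receptor level on any array. How much of the members' signal in TNBS + Veh came from neutrophils was not tested.

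The wider family of immediate early and primary response genes had smaller median differences than the members, and also lower signals. The mean in Vehicle was 14.43 for the members. It was 7.36 for the AP-1 and bZIP list, 8.67 for the EGR, NR4A, KLF and SRF list and 9.30 for other primary response genes. Bright genes as a whole were higher with TNBS, and the part of signal level in this contrast was not tested. Of 12 measured AP-1 and related bZIP genes, none was 2-fold different in TNBS + Veh, 9 were higher and 3 lower than in Vehicle, and the median was 0.23. Fosl1, which encodes the AP-1 subunit FRA1, was barely expressed, with 4.83 in Vehicle and 4.78 in I3C, while TNBS + Veh gave 5.70 and TNBS + I3C 5.66. Only its TNBS values exceeded the receptor level. Fosl2, encoding FRA2, measured 10.46, 10.01, 10.87 and 11.32, lowest in I3C and highest in TNBS + I3C like Fos.

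Of 19 genes of the EGR, NR4A, KLF and SRF group, 18 exceeded Vehicle in TNBS + Veh by some amount (0.02 for Elk1 and Nab2, the smallest), against 46.1% of coding genes, with a median of 0.35, and 1 was past 2-fold. That gene was Klf10, a TGF-beta-inducible zinc finger factor, which measured 9.60, 9.51, 11.23 and 11.10. Nr4a3, a close relative of Nr4a1, measured 6.64, 7.04, 7.58 and 7.44, the same order of arrays as Nr4a1. Mrtfb, an actin-regulated partner of serum response factor, measured 8.97, 9.13, 9.82 and 9.67. Klf2 instead measured 7.68, 8.36, 8.45 and 7.61, so that its treated colitis array was the lowest.

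Of 36 other primary response genes, 5 exceeded Vehicle at least 2-fold in TNBS + Veh (Ptgs2, Id2, Id1, Pim1 and Ier5) and none lower, with a median of 0.19. Ptgs2, the inducible cyclooxygenase, measured 7.87, 7.5, 11.38 and 8.46, so that its treated colitis array lay 0.59 above Vehicle. Id1, an inhibitor of bHLH factors, stayed up, with 10.48, 10.77, 11.59 and 11.54. Ccn1, which encodes a secreted matrix protein, went the other way, at 13.18, 13.61, 12.22 and 14.09, -0.96 from Vehicle to TNBS + Veh and then 1.87 from TNBS + Veh to TNBS + I3C.

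Genes of the kinase pathway and its brakes differed in both directions. Of 18 MAP kinase phosphatases and feedback inhibitors other than Dusp1, 10 were higher and 8 lower in TNBS + Veh than in Vehicle, none by 2-fold, with a median of 0.14. Dusp6, an ERK phosphatase, measured 8.81, 9.0, 9.70 and 9.54, with both TNBS arrays above the others as for Zfp36. Dusp5, a nuclear ERK phosphatase, measured 11.91, 11.83, 11.38 and 12.48, lowest in TNBS + Veh. Of 19 measured MAP kinase pathway and CREB genes, 1 was past 2-fold: Mapkapk2, the kinase that phosphorylates ZFP36, measured 9.71, 9.91, 11.58 and 10.40. Mapk13, a p38 kinase, measured 12.96, 13.25, 13.93 and 14.07.

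Some of the mRNAs that ZFP36 is known to target had the course of the neutrophil markers and not that of Zfp36. Of 15 genes in this list, which includes 2 ZFP36 relatives, 6 exceeded Vehicle at least 2-fold in TNBS + Veh, and the same number were lower by at least that fold once I3C was given in colitis, with medians of 0.71 and -0.69. Il1b measured 8.30, 7.98, 13.83 and 9.45, Cxcl2 8.54, 7.88, 14.38 and 9.49, and Ccl3 7.99, 7.75, 14.64 and 9.25. Neutrophils can express these cytokine genes strongly, but which cells gave the signal in these pools was not tested. Ptgs2, Tnf and Nos2 were the other 3 of the 6. Csf2, Il6, Il10 and Ccl2 were not above the receptor level on any array. Vegfa measured 9.93, 9.70, 9.23 and 9.5, lowest in TNBS + Veh. Zfp36 itself differed by 0.07 between the 2 colitis arrays. Against Vehicle, TNBS + I3C was still higher by 1.26 for Ccl3, 1.15 for Il1b, 0.95 for Cxcl2 and 0.59 for Ptgs2. Tnf was 0.49 and Nos2 0.01 higher there, where Zfp36 was 0.92 and the neutrophil median 0.28. As for Zfp36, both TNBS arrays exceeded both others by at least 0.5 for 5 of the 15 genes, against 1.68% of coding genes. These were Zfp36l2, Il1b, Cxcl2, Ccl3 and Ptgs2.

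Of 10 genes of the ATF3 and integrated stress group, 1 was past 2-fold in TNBS + Veh, Asns (asparagine synthetase), at 7.62, 8.09, 8.86 and 8.09. Atf4 measured 8.80, 8.73, 9.15 and 9.34, and the CHOP gene Ddit3 10.28, 10.44, 10.75 and 10.87. The list median was 0.15.

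Heat shock genes, like the immediate early genes, are known to be induced by dissociation. Where TNBS was compared with no TNBS, most of them differed in the direction opposite to the raised members. Of 11 measured, 9 were lower in TNBS + Veh than in Vehicle, 3 of them at least 2-fold, with a median of -0.37. Hsph1 measured 11.15 in Vehicle and 12.42 in I3C, with TNBS + Veh at 9.42 and TNBS + I3C at 8.97. Hspa1a measured 12.25, 13.18, 10.68 and 9.86 and Hsp90aa1 15.79, 16.32, 14.47 and 13.96. All 3 were highest in I3C and lowest in TNBS + I3C, the reverse of the order of Fos and Jun, and none of the 11 had both TNBS arrays above both others. Hspa8 read 19.93 on every array. Between I3C and Vehicle the heat shock median was 0.53, and the raised members Nr4a1 (0.53) and Ier3 (0.27) were higher too. Fosb, Zfp36 and Dusp1 were 0, 0.03 and 0.05 from Vehicle there. The handling of each pool during cell isolation was not recorded in the sources used here, so its part in the members' levels or differences was not tested.

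**Figure D4:**
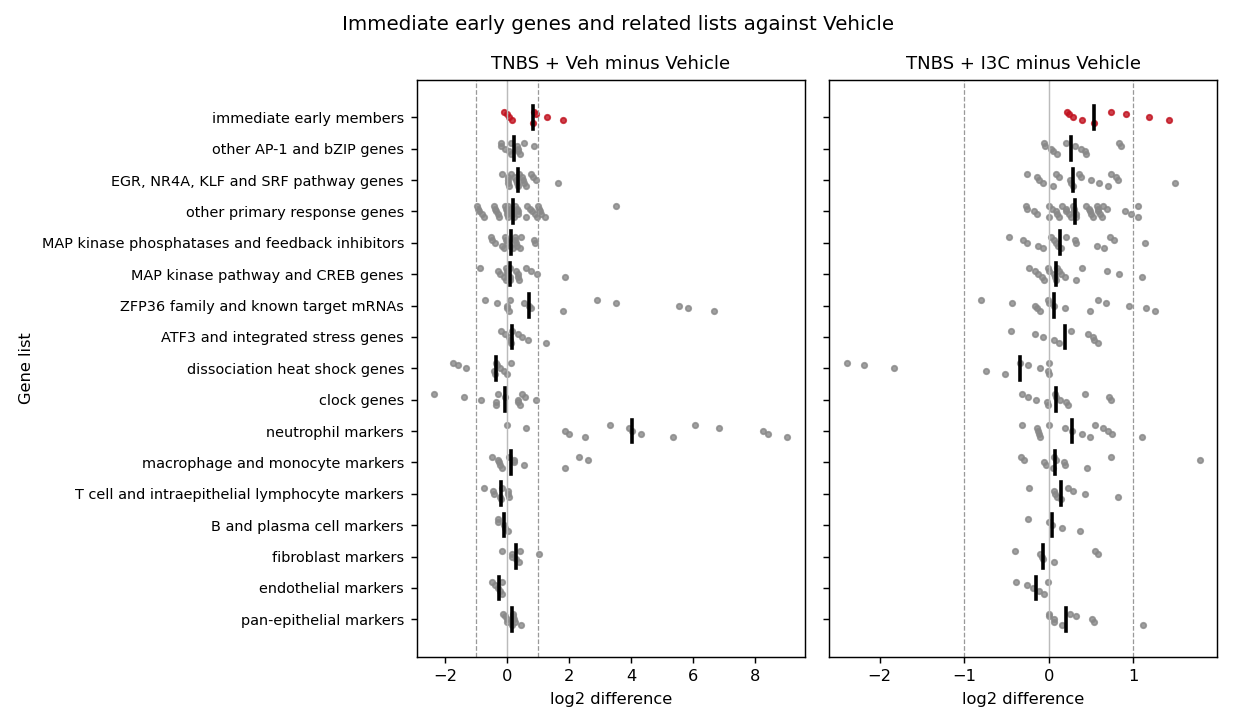
Log2 difference from Vehicle (horizontal axes) of every measured gene in the immediate early list (red) and in 16 other lists (grey), for TNBS + Veh (left panel) and TNBS + I3C (right panel), with black bars at list medians and dashed lines at 2-fold. The panels have different horizontal scales. The neutrophil median is 4.04 at left and 0.28 at right, whereas the immediate early median is 0.85 at left and 0.54 at right.

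The profile of the members was summarised as the median, over the 9 genes, of each array's deviation from the gene's own mean: -0.38 for Vehicle, -0.29 for I3C, 0.40 for TNBS + Veh and 0.32 for TNBS + I3C. Of the members, Fosb lay nearest to it (root mean square distance over the 4 arrays 0.07), followed by Zfp36 and Dusp1 (0.11 each), and Ier3 lay farthest (0.41). Among 10362 other coding genes above the receptor level on at least 1 array, the nearest was Cd274, which encodes the checkpoint ligand PD-L1, at 0.02. It measured 6.33 in Vehicle and 6.42 in I3C, with TNBS + Veh at 7.11 and TNBS + I3C at 7.05. The next were Capzb (actin capping protein, 9.67, 9.73, 10.45 and 10.39), Rpl35 (a ribosomal protein), Sar1b (a GTPase of vesicle transport) and Aldh9a1 (an aldehyde dehydrogenase), all within 0.03. With 4 arrays many genes can share such a profile, and the likeness is a description only.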

How the data were processed

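RNA of 4 pools of EPCAM-enriched CECs was measured on 1 Clariom D array each. The deposited values are log2 signals with 2 decimals, which the authors made with the Transcriptome Analysis Console (per the submitters' processing notes). How background was corrected and arrays normalized, and on which genome build, was not stated in those sources. Precision is limited by the number of arrays, and no test could be made from 1 array per group.

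Of 65956 probe sets, 30646 pair with 1 gene symbol, 2168 with several and 33142 with none in the platform annotation. Symbols were updated through the RefSeq gene table of GRCm38.p6 (22596 by gene number, 7718 by symbol, 332 kept). Where several probe sets named a gene, the one of highest mean was kept, and 19304 coding probe sets gave 19055 genes. Differences were taken between log2 values, and a gene was counted when it was past 2-fold. All members are named, up to 4 genes per other list with the largest difference in TNBS + Veh against Vehicle or TNBS + I3C against TNBS + Veh, and the 5 genes nearest to the median profile. Further list genes that appear by name were picked with their values in view. The members and the 17 lists, members included, were chosen with earlier results of these data known. The class of bright genes (mean of at least 13), the comparison of both TNBS arrays with both others, and the order of Fos were added after seeing the data. The alternatives tried were quantile normalization, centring of each array on its coding median, dim values raised to the receptor level, a filter on dim genes, the mean of a gene's probe sets, and thresholds of 1.5-fold and 3-fold. The code that takes differences, counts and quantiles was tested on simulated data with known changes, which checks the code and not the members' counts. Python 3.11.15 was used with numpy 2.4.6, pandas 2.3.3 and matplotlib 3.10.9.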

Additional observations from a re-analysis of the deposited data

Results flagged for a closer look

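For 7 of 9 members the difference between I3C and its vehicle had one sign without colitis and the opposite sign within it. With 1 array per group the difference between the effects was not tested, and 48.5% of all coding genes also had opposite signs. The effect within colitis exceeded that without it for Jun by 0.68 (from -0.30 to 0.38), for Fos by 0.48 (from -0.29 to 0.19), for Egr1 by 0.29 (from -0.07 to 0.22) and for Atf3 by 0.25 (from -0.03 to 0.22). It was smaller by -0.65 for Ier3 (from 0.27 to -0.38), by -0.63 for Nr4a1 (from 0.53 to -0.10) and by -0.44 for Dusp1 (from 0.05 to -0.39). None of these effects reached 2-fold in either setting. Jun also differed in sign between TNBS without I3C (-0.09) and TNBS under I3C (0.59), again by 0.68, as did 33.5% of coding genes. The 4 arrays enter both comparisons, so the value for Jun is the same in each.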

How the results depend on the processing

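No paired analysis was possible because each group has 1 array, and no array could be left out. Quantile normalization moved the member medians to 0.605 (TNBS + Veh against Vehicle), 0.4625 (TNBS + I3C against I3C) and 0.3 (TNBS + I3C against Vehicle), and the median difference between the effects of TNBS under and without I3C from 0.04 to 0.1525. In the last of these comparisons it left 1 member (Ier3) past 2-fold. At 1.5-fold, 5, 5 and 4 members were higher in these 3 comparisons, and at 3-fold 1, 0 and 0, as the thresholds themselves imply. At 1.5-fold the share in the first was 6.04% of coding genes and 22.8% of bright genes. No such share was computed for the others or at 3-fold, so those counts cannot be set against all genes. Each measured member had 1 probe set and lay above the receptor level on every array. The mean of probe sets, the raising of dim values and the filter on dim genes therefore could not change any member's value. Their results are included among the unchanged values counted next. Of the other values that answer a comparison, 65 stayed within 0.1 on the log2 scale or within 1.5 times the count under their alternatives. Of the single-gene values 161 did so and 19 moved, all under quantile normalization, and the sign turned for Fos (-0.055) and Egr1 (-0.0813) in TNBS + Veh against Vehicle and for Atf3 (0.0425) and Zfp36 (-0.0125) in I3C against Vehicle. Under it both TNBS arrays were above both others for 5 members, by at least 0.5 for 3, and 3 members had the order of Fos. Median centring gave 8 and 5 for the first 2 of these counts. The shares over coding genes and bright genes were computed from the deposited values only. These counts therefore have no share to be read against. The cause was not tested.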

Other observations

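A few clock genes were lowest in TNBS + Veh and higher again under I3C. Of 13 clock genes measured, 2 lay at least 2-fold below Vehicle in TNBS + Veh, and 3 lay at least 2-fold above TNBS + Veh under I3C. Nr1d1, which encodes the repressor REV-ERB alpha, measured 13.44 in Vehicle and 13.10 in I3C, with TNBS + Veh at 11.10 and TNBS + I3C at 13.13. Dbp, an output gene of the clock, measured 8.90, 9.35, 7.51 and 9.61, and Nr1d2 12.04, 11.63, 11.21 and 12.47. Others differed: Cry1, a repressor of the clock loop, measured 9.12, 8.50, 10.06 and 9.25. Per1, which also responds to CREB, measured 8.25, 8.56, 8.74 and 8.99. The hour at which each pool was taken was not stated, and time of day and group cannot be told apart.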
